A study of Homo sapiens with 6 samples.

Results

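Wnt signalling was followed here through 9 transcripts measured in A673 cells, a human Ewing sarcoma line with the fusion gene EWS-FLI1. The 9 are the secreted antagonists DKK1, DKK2 and DKK3, the Wnt co-receptors LRP5 and LRP6, the effector beta-catenin (CTNNB1), its feedback gene AXIN2, and the transcription factors LEF1 and TCF7L2. They were taken by symbol from 27234 gene rows, and each has 1 row. The cells, grown in medium with serum, were transfected with an oligonucleotide that targets FLI1 (si-FLI1, 3 libraries) or with a scrambled control oligonucleotide (si-con, 3 libraries), and polyadenylated RNA was taken after 48 h. Both groups carry the fusion. The comparison asks which transcripts differ when FLI1, which gives the fusion its DNA-binding part, is targeted. The genes were chosen by name with their si-FLI1 and si-con counts from these libraries already known, so their levels and fold changes describe these 6 libraries and are given without tests of their own.

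Wnt proteins bind Frizzled receptors together with LRP5 or LRP6, which blocks the complex that degrades beta-catenin. Beta-catenin then accumulates, enters the nucleus and activates genes through TCF and LEF factors, and AXIN2 and LEF1 are among the genes it induces in many tissues. DKK1 and DKK2 bind LRP5 and LRP6 and can remove them from the surface together with Kremen proteins, while DKK3 is a divergent family member that does not act in this way. In Ewing sarcoma, DKK1 has been described as repressed and DKK2 as induced by the fusion.

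The promoter of DKK1 is shown because DKK1 had the widest difference of the 9 and is itself described as a target of beta-catenin in human cells. The 250 bases before its transcription start are given from RefSeq (GRCh38.p14, chr10:52314031-52314280, plus strand), with matches to the TCF/LEF core CTTTGA and to the TATA box TATAAA in capitals.
DKK1 promoter: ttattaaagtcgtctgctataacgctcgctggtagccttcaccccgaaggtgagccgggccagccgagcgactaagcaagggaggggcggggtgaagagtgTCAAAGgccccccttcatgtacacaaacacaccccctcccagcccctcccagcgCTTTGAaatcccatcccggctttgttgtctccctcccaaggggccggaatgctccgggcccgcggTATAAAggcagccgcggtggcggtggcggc
The search covered both strands, and these motifs do not overlap each other. CTTTGA occurred 2 times, starting 149 bases before the start on the minus strand and 95 bases before it on the plus strand. At least 1 match is present in the 250 bases before the start of 11.4% of 27303 RefSeq genes, where a gene with several starts was counted by the first one listed. TATAAA began 30 bases before the start, and 11.1% of these windows hold it. The ETS core GGAA, which is the letter core that FLI1 recognises, had 1 match, against a median of 3 over all windows, 92.8% of which hold it. RefSeq windows were matched for 5 of the 9 genes, and those of CTNNB1, LEF1, LRP5 and TCF7L2 held no CTTTGA, at any of the 3 starts listed for TCF7L2. A match describes the letters of the window only.

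Libraries covered the 3' ends of transcripts. Counts over all genes came to between 417145 and 1893606 for each library, and si-FLI1 replicate 3 was the lowest. In that library 10.1% of the total in the column header lay in the gene table, against 41.2% to 61.0% in the other libraries. Its score on the first principal component was 80.2, while the others scored between −30.5 and 1.63. On the third component si-con replicate 1 scored 45.1 and the others between −31.6 and 10.9. A single count was worth 2.68 CPM (counts scaled to library size by trimmed mean of M values) in si-FLI1 replicate 3 and 0.539 to 0.855 CPM in the others. FLI1, the targeted gene, was at 19.0, 42.5 and 24.1 CPM in si-FLI1 replicates 1, 2 and 3, against 63.0, 69.1 and 62.4 CPM in si-con replicates 1, 2 and 3. It had a log2 fold change of −1.16 ± 0.36 (SE), which missed the threshold (adjusted p = 0.17 over all genes by the quasi-likelihood test of edgeR). All 7 listed Ewing sarcoma markers had counts, and their summed level ran from 1151 to 1922 CPM in si-FLI1 and from 2679 to 3894 CPM in si-con. NR0B1 and PRKCB were called lower, as were 0.117% of all tested genes. LIPI, STEAP1, NKX2-2 and CD99 were not called, with log2 fold changes of −1.10, −0.87, −0.91 and −0.28 (adjusted p = 0.0654, 0.184, 0.487 and 0.819 in edgeR). CCND1, a large part of the summed level and also not called, averaged 894 CPM in si-FLI1 and 2041.5 CPM in si-con.

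**Figure D1:**
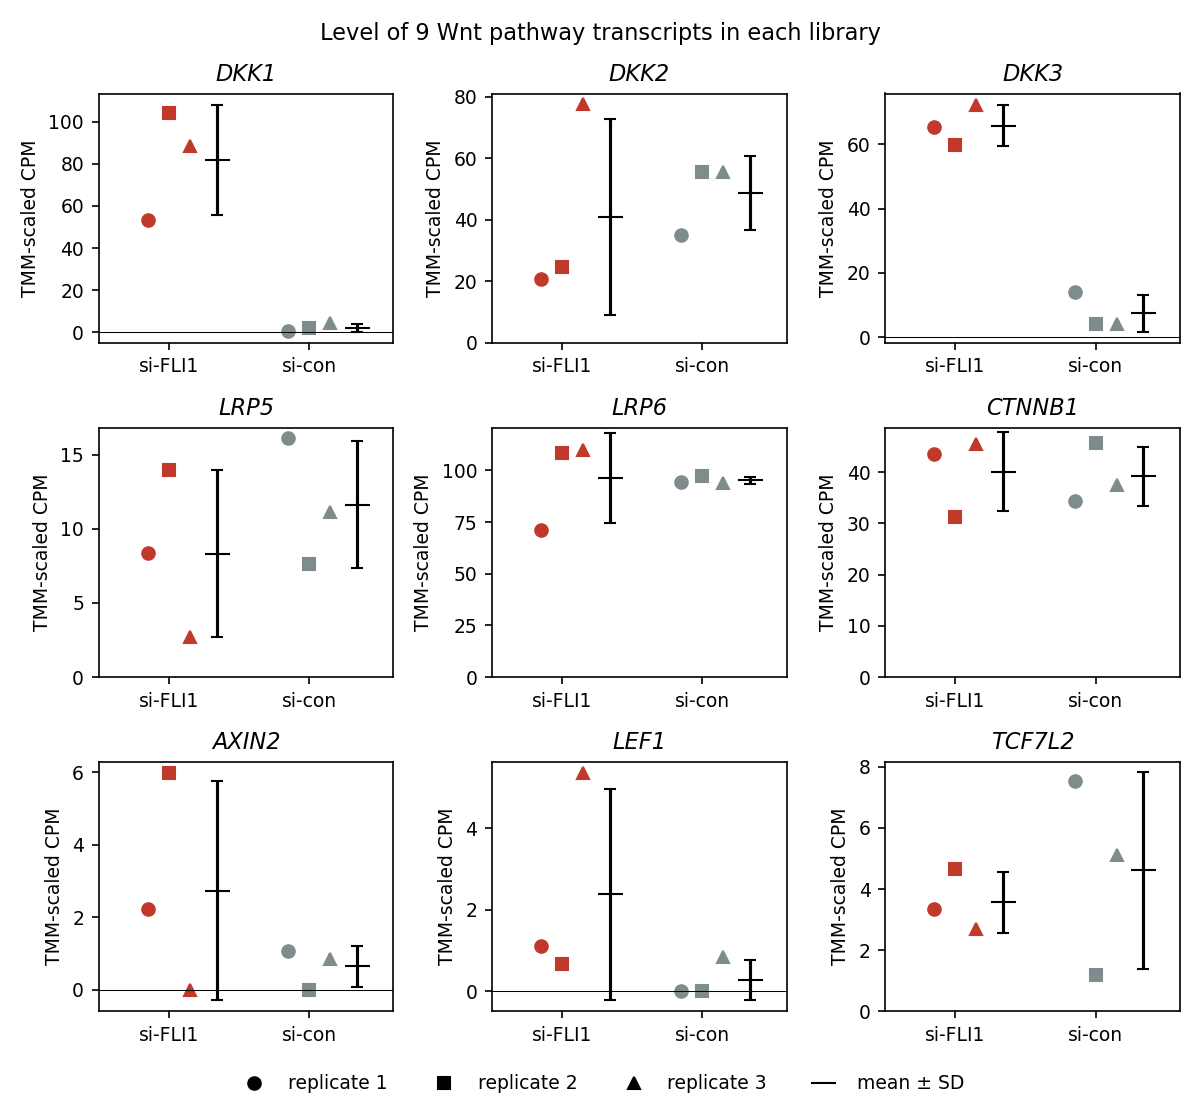
Levels of the 9 transcripts by library, as TMM-scaled CPM on linear axes that differ between panels, with si-FLI1 in red, si-con in grey, symbols for replicate numbers and black bars for the mean ± SD of 3 libraries. DKK1 and DKK3 have no overlap between groups, with means of 81.9 and 65.8 CPM in si-FLI1 and 2.19 and 7.46 CPM in si-con, and the DKK2 point at 77.6 CPM is si-FLI1 replicate 3.

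The widest differences between the groups lay among the antagonists: DKK1 and DKK3 were higher in every si-FLI1 library, and DKK2 was not. DKK1 (NM_012242, chromosome 10, 52314281 to 52317657, plus strand, hg38) had 95, 157 and 33 counts in si-FLI1 replicates 1, 2 and 3, and 1, 3 and 5 counts in si-con replicates 1, 2 and 3. On the CPM scale these were 53.1, 104 and 88.4 in si-FLI1 and 0.539, 1.76 and 4.27 in si-con. Each si-FLI1 library lay far above each si-con library, in which DKK1 was close to the limit of detection. The means were 81.9 ± 26.2 CPM in si-FLI1 and 2.19 ± 1.90 CPM in si-con (SD, n = 3), and the log2 fold change was 5.31 ± 0.55 (SE; 95% confidence interval 4.13 to 6.50). By pooled counts the ratio was 40.9, with an exact counting interval of 21.2 to 90.3, which covers counting error only.

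DKK3 (NM_001330220, chromosome 11, 11962996 to 12009370, minus strand) was at 65.4, 59.8 and 72.3 CPM in si-FLI1 replicates 1, 2 and 3, from 117, 90 and 27 counts. The levels were 14.0, 4.10 and 4.27 CPM in si-con replicates 1, 2 and 3, from 26, 7 and 5 counts. The groups did not overlap, and the highest si-con value was that of replicate 1, the library that also stood apart in the component scores. DKK3 averaged 65.8 ± 6.26 CPM in si-FLI1 and 7.46 ± 5.67 CPM in si-con, a log2 fold change of 3.07 ± 0.47 (SE; 95% confidence interval 2.07 to 4.07). The si-FLI1 libraries were closer to each other for DKK3 than for DKK1.

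DKK2 (NM_014421, chromosome 4, 106921802 to 107036296, minus strand) was at 20.7, 24.6 and 77.6 CPM in si-FLI1 replicates 1, 2 and 3, from 37, 37 and 29 counts. The levels were 35.0, 55.6 and 55.6 CPM in si-con replicates 1, 2 and 3, from 65, 95 and 65 counts. Replicates 1 and 2 of si-FLI1 lay below every si-con library, and si-FLI1 replicate 3 lay above every one. The mean was 41.0 ± 31.8 CPM in si-FLI1 and 48.7 ± 11.9 CPM in si-con, with a log2 fold change of −0.42 ± 0.46 (SE; 95% confidence interval −1.41 to 0.57). Without si-FLI1 replicate 3 the log2 fold change was −1.10 ± 0.38. Leaving out that library and si-con replicate 1, a choice made after seeing the data, gave −1.31 ± 0.36. Without si-FLI1 replicate 1 it was −0.06 ± 0.49, and without si-FLI1 replicate 2 it was −0.15 ± 0.53. DKK2 was not among the calls in any of these fits. Summed over 6 blood-cell markers, si-FLI1 ran from 0.664 to 69.6 CPM and si-con from 0.539 to 7.69 CPM. PTPRC, the leukocyte antigen CD45, had 0, 0 and 16 counts in si-FLI1 replicates 1, 2 and 3 and 0, 0 and 6 counts in si-con replicates 1, 2 and 3, while CD3E was at 0 in all libraries. The part of such RNA in the DKK2 value was not tested.

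The summed level of DKK1, DKK2 and DKK3 was 139, 189 and 238 CPM in si-FLI1 replicates 1, 2 and 3, against 49.5, 61.5 and 64.1 CPM in si-con replicates 1, 2 and 3. DKK2 made up 14.9%, 13.0% and 32.6% of the DKK counts in si-FLI1 replicates 1, 2 and 3, against 70.7%, 90.5% and 86.7% in si-con replicates 1, 2 and 3. The DKK2 share was lower in every si-FLI1 library than in every si-con library. A share also depends on the counts of the other DKK genes, and the log2 fold change of DKK2 itself was −0.42 ± 0.46. For si-FLI1 replicate 3, with 89 DKK counts, the exact Clopper-Pearson 95% interval of the DKK2 share was 23.0% to 43.3%, which covers counting error only. DKK1 made up 38.2%, 55.3% and 37.1% in si-FLI1 and 1.09%, 2.86% and 6.67% in si-con. Shares are of 3' counts and are not divided by transcript length.

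**Figure D2:**
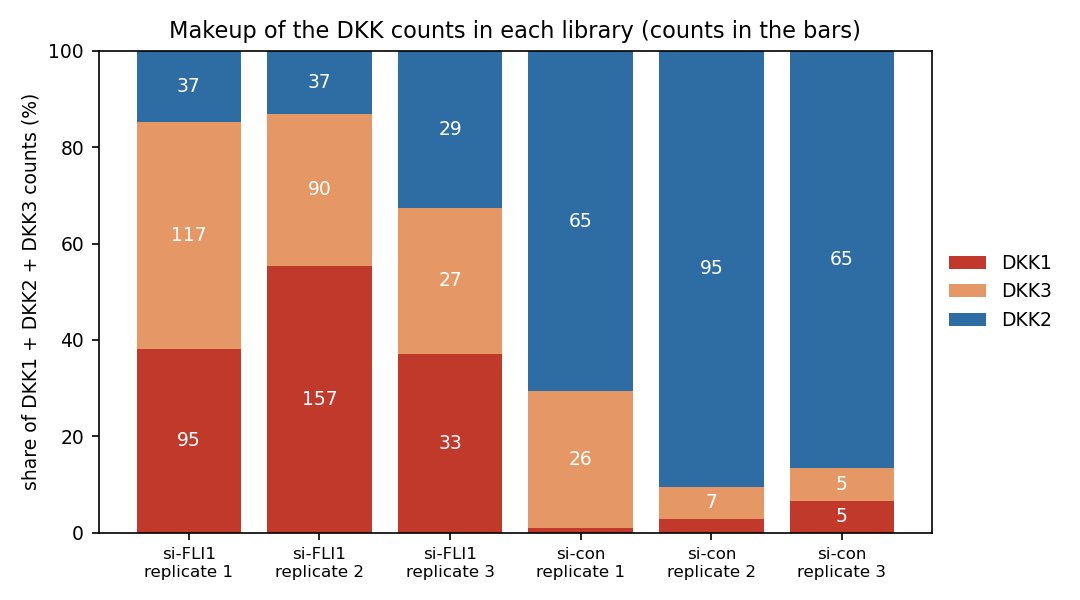
Makeup of the DKK counts in each library, as the share of DKK1 (red), DKK3 (orange) and DKK2 (blue) in percent, with the counts written in each segment above 5%. The blue segment is 13.0% to 32.6% in the si-FLI1 libraries and 70.7% to 90.5% in the si-con libraries.

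The receptors that DKK1 and DKK2 bind had overlapping levels in both groups. LRP6 (NM_002336, chromosome 12, 12116026 to 12266877, minus strand) was at 71.0, 108 and 109.8 CPM in si-FLI1 replicates 1, 2 and 3, and at 94.2, 97.2 and 94.0 CPM in si-con replicates 1, 2 and 3. Its si-con libraries were tightly grouped and lay within the si-FLI1 range. The log2 fold change was 0.00 ± 0.28 (SE; 95% confidence interval −0.60 to 0.60). LRP5 (NM_002335, chromosome 11, 68312609 to 68449275, plus strand) was at 8.39, 13.95 and 2.68 CPM in si-FLI1, the last from 1 count, and at 16.2, 7.61 and 11.1 CPM in si-con. The groups overlapped, and the log2 fold change of −0.32 ± 0.59 (SE; 95% confidence interval −1.58 to 0.94) was 0.25 ± 0.61 without si-FLI1 replicate 3 and si-con replicate 1. The interval of LRP5 was wider than that of LRP6, and changes within these intervals were not detectable at this depth.

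Beta-catenin itself was close to even. CTNNB1 (NM_001330729, chromosome 3, 41199424 to 41240453, plus strand) was at 43.6, 31.2 and 45.5 CPM in si-FLI1 replicates 1, 2 and 3 and at 34.5, 45.7 and 37.6 CPM in si-con replicates 1, 2 and 3. The ranges of the groups nearly coincided, and the log2 fold change was 0.01 ± 0.34 (SE; 95% confidence interval −0.71 to 0.73). Beta-catenin is controlled mainly through the stability of the protein, which was not measured.

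The nuclear factors and AXIN2 were near the limit of detection. AXIN2 (NM_004655, chromosome 17, 65528565 to 65561622, minus strand), a scaffold of the destruction complex, had 4, 9 and 0 counts in si-FLI1 replicates 1, 2 and 3 and 2, 0 and 1 counts in si-con replicates 1, 2 and 3. Most of its si-FLI1 counts came from replicate 2, and replicate 3 had none. The ratio of pooled counts was 5.59, with an exact 95% counting interval of 1.54 to 30.6. LEF1 (NM_001166119, chromosome 4, 108047545 to 108166797, minus strand) had 2, 1 and 2 counts in si-FLI1 and 0, 0 and 1 counts in si-con, a ratio of 6.46 with an interval of 0.722 to 305. TCF7L2 (NM_001198525, chromosome 10, 112950250 to 113167677, plus strand) had 6, 7 and 1 counts in si-FLI1 and 14, 2 and 6 counts in si-con, a ratio of 0.822 with an interval of 0.389 to 1.68. These 3 genes had too few counts to be kept for the fit. With no low-count filter their log2 fold changes were 2.09 ± 1.67 for AXIN2, 2.58 ± 2.16 for LEF1 and −0.34 ± 1.09 for TCF7L2 (SE), and none was called.

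Of the 9 genes, 6 were kept by the filter on low counts, and 2 of these, DKK1 and DKK3, were among the genes called higher in si-FLI1 at an adjusted p of 0.05 (edgeR). Over all 9420 genes tested, 1.45% were called, 1.34% higher and 0.117% lower. Since the contrast had a part in choosing the genes, this count is given as a description. Both stayed among the calls when any 1 of the 6 libraries was left out, with log2 fold changes from 4.76 to 6.07 for DKK1 and from 2.76 to 3.91 for DKK3. The highest value of DKK1 was that without si-con replicate 3, and that of DKK3 without si-con replicate 1. DKK1 and DKK3 did not overlap between groups, as was the case for 16.6% of all tested genes, 8.93% with si-FLI1 higher. Summed over 7 fibroblast markers, si-FLI1 ran from 669 to 892 CPM and si-con from 431 to 702 CPM. Of these markers COL1A1 was called higher, at 465 ± 68.9 CPM in si-FLI1 and 184 ± 8.57 CPM in si-con. PDGFRB averaged 51.3 CPM in si-FLI1 and 15.3 CPM in si-con, and FAP 15.3 CPM in si-FLI1 and 3.15 CPM in si-con. Neither overlapped between groups, with log2 fold changes of 1.68 ± 0.47 and 2.09 ± 0.77 (SE), and neither passed (adjusted p = 0.117 and 0.299 in edgeR). THY1, a large part of the sum, averaged 269 CPM in si-FLI1 and 335 CPM in si-con, with overlap. DCN had 7, 2 and 0 counts in si-FLI1 and 0, 1 and 1 counts in si-con, and LUM had 1, 1 and 2 counts in si-FLI1 and 2, 0 and 0 counts in si-con. PDGFRA went the other way, with 2, 1 and 0 counts in si-FLI1 and 25, 0 and 1 counts in si-con replicates 1, 2 and 3. The libraries are of A673 cells, and the part of any other cells in the DKK1 and DKK3 values was not tested. Summed endothelial markers ran from 8.03 to 14.6 CPM in si-FLI1 and from 6.44 to 22.1 CPM in si-con, and epithelial markers, of which KRT5, KRT14 and KRT19 were at 0, from 0 to 8.03 CPM in si-FLI1 and from 0 to 7.69 CPM in si-con. In bulk RNA, fewer cells of a type and less RNA in each cell cannot be told apart.

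**Figure D3:**
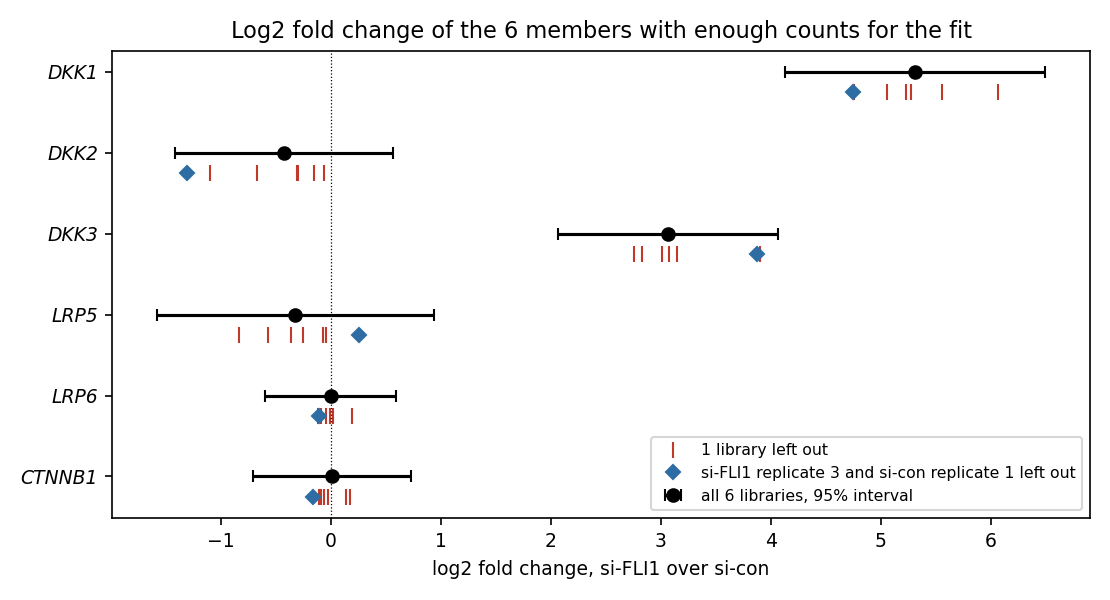
Log2 fold change of si-FLI1 over si-con for the 6 genes with enough counts for the fit, with all 6 libraries (black points, 95% interval), with 1 library left out (red ticks) and without si-FLI1 replicate 3 and si-con replicate 1 (blue diamonds). DKK1 and DKK3 lie at 5.31 and 3.07 and stay to the right in each fit shown, DKK2 lies between −1.31 and −0.06, and LRP6 and CTNNB1 lie close to 0.

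The transcripts whose pattern was most like that of DKK1, by Pearson correlation of log2(CPM + 1) over the 6 libraries, were PTX3 (r = 0.997), TPM1 (0.996), LOX (0.994), EPG5 (0.993) and ANKRD28 (0.993). The 6 libraries fall into their groups on this measure, so a high r mostly reflects a difference between si-FLI1 and si-con in the same direction, whatever its size. The log2 fold changes were 1.54, 2.27, 3.57, 1.75 and 1.40 in the same order, against 5.31 for DKK1. EPG5 and ANKRD28 were not called (adjusted p = 0.143 and 0.0831 in edgeR). PTX3, a secreted pentraxin, was at 982, 1099 and 1146 CPM in si-FLI1 replicates 1, 2 and 3 and at 319, 363 and 429 CPM in si-con replicates 1, 2 and 3. LOX, which crosslinks collagen, was at 587, 691 and 747 CPM in si-FLI1 and at 36.6, 62.1 and 71.8 CPM in si-con. In both, the lowest si-FLI1 value was that of replicate 1 and the lowest si-con value that of replicate 1, as for DKK1. Among the other genes described above, DKK3 had r = 0.87 with DKK1 and DKK2 had r = −0.24.

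Wider Wnt signalling was read from 118 other pathway genes in 8 lists, of which 103 had at least 1 count and 59 were tested. Of the 59, CD44 was called higher and 0 were called lower (edgeR adjusted p under 0.05), which is 1.69% against 1.45% of all genes tested. At an unadjusted p under 0.05, 4 were higher and 3 lower, against 10.8% of all genes tested in either direction. Their median log2 fold change was 0.04, against 0.01 for all tested genes, with 30 positive and 29 negative. DESeq2 called CD44 and RSPO3 higher and 0 lower, and limma-voom called 1 higher, again CD44, and 0 lower.

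**Figure D4:**
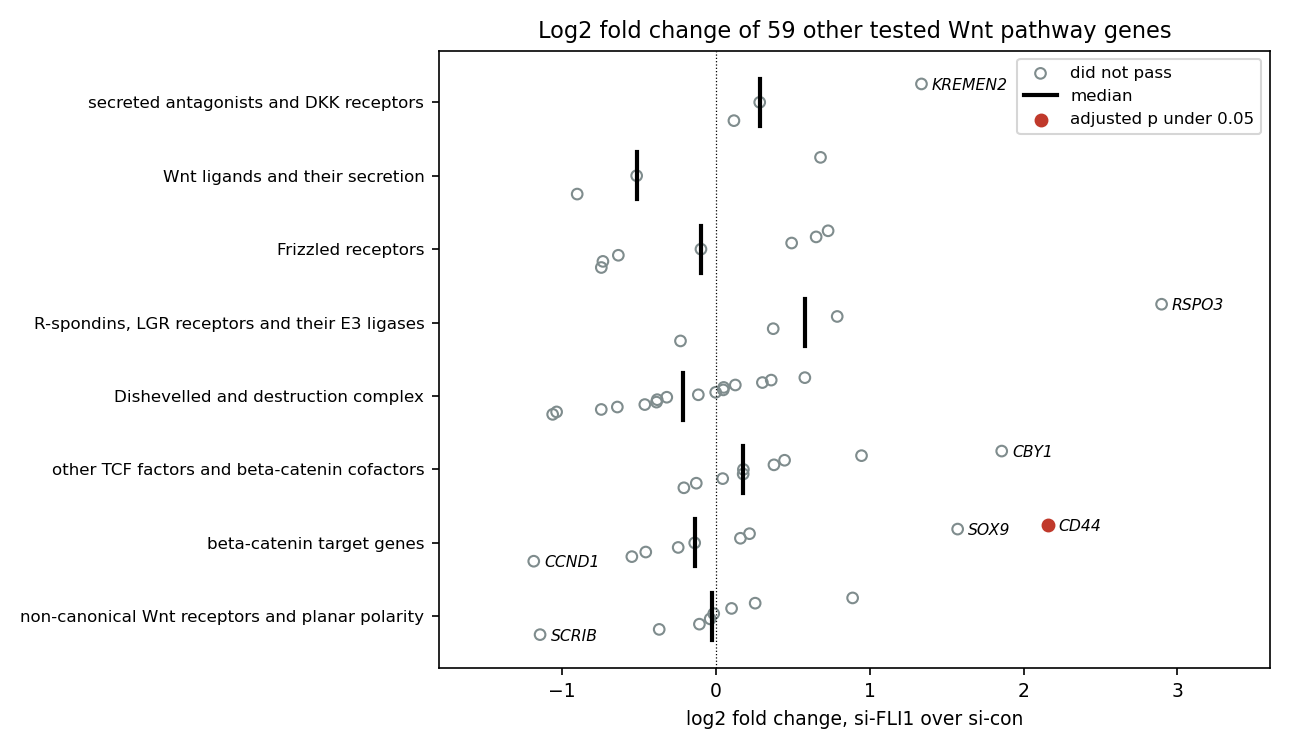
Log2 fold change of si-FLI1 over si-con for the 59 tested genes of 8 Wnt pathway lists, with medians as black bars, open points for genes that did not pass and a red point for an adjusted p under 0.05. CD44 at 2.16 is the 1 red point, RSPO3 lies farthest right at 2.90, and the medians run from −0.51 to 0.58.

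Among other secreted antagonists and DKK receptors, 3 of 14 genes were tested and 0 called in edgeR, DESeq2 or limma-voom, also at an unadjusted p under 0.05 in edgeR. KREMEN1, a co-receptor for DKK1 and DKK2, averaged 18.6 ± 0.15 CPM in si-FLI1 and 17.2 ± 5.26 CPM in si-con (SD, n = 3), with a log2 fold change of 0.12 ± 0.45 (SE). KREMEN2 averaged 9.89 ± 8.07 CPM in si-FLI1 and 4.18 ± 2.03 CPM in si-con, with 1.34 ± 0.69 (adjusted p = 0.532 in edgeR). Its log2 fold change was 0.56 without si-FLI1 replicate 2, which was at 18.6 CPM, and 2.08 without si-FLI1 replicate 3 and si-con replicate 1. FRZB, a decoy receptor that binds Wnt proteins, averaged 51.1 ± 9.14 CPM in si-FLI1 and 41.3 ± 6.24 CPM in si-con, with 0.29 ± 0.32. DKK4, the remaining member of the DKK family that acts on LRP receptors, had 0 counts in all libraries, and was named with this value in view.

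Of 21 Wnt ligands and secretion genes, 3 were tested and 0 called in these tools, again also without adjustment in edgeR. WLS, the carrier that brings Wnt proteins to the surface, averaged 212 ± 17.0 CPM in si-FLI1 and 132 ± 68.4 CPM in si-con, with a log2 fold change of 0.68 ± 0.35 (SE; BH-adjusted p = 0.527, edgeR). WNT5A, which mostly signals without beta-catenin, averaged 20.7 ± 12.9 CPM in si-FLI1 and 26.8 ± 7.00 CPM in si-con, with −0.51 ± 0.53. WNT10A averaged 8.97 ± 9.24 CPM in si-FLI1 and 19.4 ± 7.70 CPM in si-con, with −0.90 ± 0.63. Its si-FLI1 replicate 1 was at 19.6 CPM and the other si-FLI1 libraries at 4.65 and 2.68 CPM, and without replicate 1 the log2 fold change was −2.22 (adjusted p = 0.308 in edgeR). For both ligands the difference was smaller than the spread of the si-FLI1 libraries or close to it.

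All 10 Frizzled receptors had counts, 7 were tested and 0 were called in the same 3 tools, with a median log2 fold change of −0.10. FZD4 was the 1 gene with an unadjusted p under 0.05 in edgeR. FZD4 was at 41.9, 49.2 and 93.7 CPM in si-FLI1 replicates 1, 2 and 3 and at 108.8, 88.4 and 92.3 CPM in si-con replicates 1, 2 and 3. Its si-FLI1 replicate 3 lay above the other si-FLI1 libraries, as for DKK2, but within the si-con range. Its log2 fold change was −0.73 ± 0.33 (SE; BH-adjusted p = 0.431, edgeR). FZD1 averaged 59.6 ± 20.3 CPM in si-FLI1 and 95.6 ± 12.8 CPM in si-con, with −0.63 ± 0.30 (adjusted p = 0.479 in edgeR).

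R-spondins strengthen Wnt signalling by binding LGR receptors and removing the ligases that degrade Frizzled. Of 9 genes of this arm, 4 were tested and 0 called in edgeR, with 1, RSPO3, at an unadjusted p under 0.05. RSPO3 (chromosome 6, 127118903 to 127199481, plus strand) was at 11.2, 14.6 and 26.8 CPM in si-FLI1 replicates 1, 2 and 3, and at 3.23, 0.586 and 2.56 CPM in si-con replicates 1, 2 and 3. The groups did not overlap, and the log2 fold change was 2.90 ± 0.71 (SE), at an edgeR adjusted p of 0.0654. It passed in DESeq2 (adjusted p = 0.0121) and in edgeR with no low-count filter (adjusted p = 0.0257). LGR4, an R-spondin receptor, averaged 86.7 ± 39.5 CPM in si-FLI1 and 48.3 ± 19.9 CPM in si-con, with 0.79 ± 0.39 (adjusted p = 0.501 in edgeR).

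Inside the cell, 16 of 19 Dishevelled and destruction complex genes were tested and 0 called in edgeR, DESeq2 or limma-voom, and 0 reached an unadjusted p under 0.05 in edgeR. The median log2 fold change was −0.22. CSNK1A1, the kinase that primes beta-catenin for degradation, averaged 122 ± 75.3 CPM in si-FLI1 and 113 ± 18.9 CPM in si-con, with 0.05 ± 0.36. CSNK1D averaged 138 ± 24.4 CPM in si-FLI1 and 92.0 ± 21.0 CPM in si-con, with 0.58 ± 0.28 (adjusted p = 0.487 in edgeR). GSK3A, a kinase of the same complex, averaged 5.64 ± 4.91 CPM in si-FLI1 and 14.0 ± 3.74 CPM in si-con, with −1.03 ± 0.63 (adjusted p = 0.619 in edgeR). GSK3A had 0 counts in si-FLI1 replicate 3, and its log2 fold change was −0.49 without that library and si-con replicate 1. Among other TCF factors and beta-catenin cofactors, 9 of 15 were tested and 0 called in the same tools, with 1, CBY1, at an unadjusted p under 0.05. CBY1, which binds beta-catenin and holds it back, was at 1.86 ± 0.82 (log2 fold change, SE; edgeR adjusted p = 0.431). CBY1 had 13, 13 and 6 counts in si-FLI1 and 5, 8 and 0 counts in si-con. Its log2 fold change was 1.40 without si-con replicate 3 and 2.65 without si-con replicate 2. The corepressor TLE3 was at 0.95 ± 0.48 (adjusted p = 0.516 in edgeR), with si-FLI1 replicates 1, 2 and 3 at 86.1, 48.5 and 10.7 CPM and si-con replicates 1, 2 and 3 at 26.9, 24.6 and 29.9 CPM. The log2 fold change of TLE3 was 0.28 without si-FLI1 replicate 1 and 1.32 without si-FLI1 replicate 3 (adjusted p = 0.898 and 0.108 in edgeR). The corepressors CTBP1 and CTBP2 were at −0.13 ± 0.34 and 0.18 ± 0.34.

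Of 15 other genes listed as beta-catenin targets, 9 were tested, CD44 was called higher and 0 were called lower. An unadjusted p under 0.05 in edgeR was reached by 2 higher genes and 1 lower gene. Over all genes tested, 1.45% were called and 10.8% reached an unadjusted p under 0.05. The list is short and was chosen with earlier results of these data known, so its counts are given as a description. CD44 (chromosome 11, 35138870 to 35232402, plus strand), a hyaluronan receptor, was at 615, 536 and 843 CPM in si-FLI1 replicates 1, 2 and 3 and at 159.9, 130.0 and 155 CPM in si-con replicates 1, 2 and 3. Each si-FLI1 library was more than 3 times the highest si-con library, and the log2 fold change was 2.16 ± 0.28 (SE; BH-adjusted p = 0.000492, edgeR). CD44 is also a surface marker of mesenchymal cells and is controlled by many pathways. SOX9, a transcription factor, averaged 25.5 ± 6.11 CPM in si-FLI1 and 8.40 ± 4.56 CPM in si-con, with 1.57 ± 0.54 (adjusted p = 0.248 in edgeR). CCND1, the G1 cyclin, was at 1256, 1033 and 394 CPM in si-FLI1 and at 1219.7, 2160.4 and 2744 CPM in si-con. The groups overlapped, and its log2 fold change was −1.18 ± 0.42 (SE; BH-adjusted p = 0.275, edgeR). It passed in edgeR without si-FLI1 replicate 3 and si-con replicate 1 (adjusted p = 0.0062) and with no low-count filter (adjusted p = 0.0236). CCND1 is also a large part of the summed level of the Ewing sarcoma markers, which was lower in si-FLI1. That sum is therefore not separate from the CCND1 value. The part of a wider shift of these markers in the CCND1 value was not tested. SP5 and NKD1, which respond to beta-catenin in many tissues and are named after their values were seen, had 0 counts in all libraries for SP5 and 1, 1 and 0 counts in si-FLI1 against 0, 0 and 0 counts in si-con for NKD1. APCDD1, NKD2 and TNFRSF19 are in the same list and are also named after their values were seen. APCDD1 averaged 209 ± 109 CPM in si-FLI1 and 312 ± 44.7 CPM in si-con (SD, n = 3). Its log2 fold change was −0.55 ± 0.34 (SE; adjusted p = 0.635 in edgeR). NKD2 had 11, 3 and 0 counts in si-FLI1 and 23, 3 and 8 counts in si-con. TNFRSF19 had 12, 0 and 1 counts in si-FLI1 and 0, 0 and 0 counts in si-con.

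Of 15 non-canonical receptors and planar polarity genes, 8 were tested and 0 called in these tools, with 1, SCRIB, at an unadjusted p under 0.05. ROR2, a receptor for WNT5A, averaged 22.7 ± 3.92 CPM in si-FLI1 and 12.5 ± 3.30 CPM in si-con, with a log2 fold change of 0.89 ± 0.45 (SE; BH-adjusted p = 0.522, edgeR). The polarity scaffold SCRIB averaged 15.7 ± 11.2 CPM in si-FLI1 and 39.3 ± 22.0 CPM in si-con, with −1.14 ± 0.53 (adjusted p = 0.458 in edgeR), and −0.28 without si-FLI1 replicate 3 and si-con replicate 1. RYK, a further Wnt receptor, averaged 47.9 ± 22.6 CPM in si-FLI1 and 53.8 ± 14.98 CPM in si-con, with −0.11 ± 0.37.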

How the data were processed

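RNA was measured in 6 libraries of A673 cells, made per the labels' protocols with a bulk form of MARS-seq, a 3' method with molecular barcodes. The authors deposited raw counts per gene over exons, per the file headers. Per the submitters' processing notes, bcl2fastq, HISAT 0.1.5 and HOMER were used with hg38. Neither barcode collapsing nor strand is stated, and PCR copies may be counted. Starts and ends are 1-based. Separate cultures are not stated for the libraries, and the p-values therefore rest on a spread that may be technical. Libraries of 1 group differed beyond counting noise (chi-square divided by its degrees of freedom was 6.78 or more).

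Genes were kept by filterByExpr (minimum count 10, minimum total 15) and tested in R 4.3.3 with edgeR 4.0.16 (TMM, glmQLFit with robust=TRUE, glmQLFTest, two-sided) and Benjamini-Hochberg adjustment over 9420 genes, with a threshold of 0.05. SEs and 95% intervals were derived from the F statistic. Count ratios and shares have exact intervals. CPM were computed from the deposited counts. The members, lists and rule for named genes were chosen with earlier results of these data known. Named were the 9 genes, FLI1, the 5 transcripts most like DKK1, and from each list up to 4 called genes, the 2 with the smallest p among the rest and the 2 with the highest CPM. Alternatives used DESeq2 1.42.0 and limma 3.58.1, other scalings and filters, the replicate block and left-out libraries.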

Additional observations from a re-analysis of the deposited data

How the results depend on the processing

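DKK1 and DKK3 were called higher, and no other member was called, under each of the 15 alternatives. The genes were chosen with their counts known and the refits use the same libraries, so this is given as a description. DKK1 ran from 4.75 to 6.07, DKK3 from 2.76 to 3.91, DKK2 from −1.31 to −0.06, LRP5 from −0.84 to 0.25, LRP6 from −0.12 to 0.19 and CTNNB1 from −0.17 to 0.17 on the log2 scale. Over all genes, 126 were higher and 11 lower. With no low-count filter 306 were higher and 62 lower, with DESeq2 34 lower, under total counts 17 lower, and without si-FLI1 replicate 3 and si-con replicate 1, chosen after seeing the data, 32 lower. Leaving out 1 library gave 64 to 121 higher and 1 to 7 lower. The counts higher were 82 and 73 without si-FLI1 replicates 1 and 2, and 64 and 71 without si-con replicates 2 and 3, with 1 lower in each of these. Without si-FLI1 replicate 3 there were 5 lower, and without si-con replicate 1 there were 7. Scaling by total counts moved the median of all genes to −0.12.

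Of the other pathway genes, 1 was higher and 0 lower. With no filter CD44 and RSPO3 were higher (2) and CCND1 lower (1), with DESeq2 2 were higher, and without both libraries that stood apart 1 was lower. Over the alternatives, adjusted p ran from 0.0121 to 0.267 for RSPO3 and from 0.0062 to 0.651 for CCND1. PTX3 lost its call without si-FLI1 replicate 2 or si-con replicate 2.

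Over all tested genes, same-numbered libraries did not deviate together (r of deviations −0.02, −0.01 and −0.04). Such a correlation cannot exclude a shared preparation. PTPRC had counts only in replicate 3 of each group, 16 in si-FLI1 and 6 in si-con. The part of the header total in the gene table was also lowest in replicate 3 of each group, at 10.1% and 41.2%. The replicate block left 99 genes higher and 2 lower.

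Some values near 0 turned sign. KREMEN1 was −0.024 under total counts and ran from −0.12 to 0.25 with 1 library left out. CSNK1A1 was −0.094 under total counts, −0.020 with no filter, −0.20 in limma-voom, −0.047 with the replicate block, −0.45 without both libraries that stood apart and −0.51 to 0.32 with 1 left out. CTBP2 was −0.24 without both and −0.17 to 0.45 with 1 left out, CTBP1 −0.37 to 0.13 and RYK −0.59 to 0.069. The causes were not tested. AXIN2, LEF1, TCF7L2 and most Wnt ligands had too few counts for the fit. The parts of depth and of low expression in these counts were not tested.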

Other observations

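Tested genes within 1 Mb of a DKK gene, chosen by position, are given as values. USP47, a deubiquitinase whose row ends 3.67 kb from that of DKK3, averaged 59.4 CPM in si-FLI1 and 33.3 CPM in si-con, with a log2 fold change of 0.79 ± 0.33 (SE; BH-adjusted p = 0.406, edgeR). PARVA, an adhesion protein 368 kb from DKK3, averaged 49.7 CPM in si-FLI1 and 21.5 CPM in si-con, with 1.23 ± 0.36 (adjusted p = 0.135 in edgeR). The TEAD1 transcription factor, 665 kb from DKK3, was at 0.03 ± 0.41. Near DKK2, the matrix protein NPNT averaged 19.3 CPM in si-FLI1 and 2.29 CPM in si-con, with 2.76 ± 0.81 (adjusted p = 0.138 in edgeR), and 4 other tested neighbours were between −0.20 and 0.81. CSTF2T, the 1 tested neighbour of DKK1, was at −0.39 ± 0.51. The smallest BH-adjusted p of these neighbours was that of PARVA. The LEF1 row begins 1011 kb from the end of the DKK2 row on the same strand.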
